A study of Mus musculus with 15 samples.

Results

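The levels of 10 genes that encode transcription factors of the heart muscle lineage were followed across 15 mouse ventricle libraries. The genes are Gata4, Gata6, Mef2a, Mef2c, Mef2d, Nkx2-5, Tbx5, Tbx20, Hand2 and Srf. They were chosen by name, as the table rows whose Ensembl identifier carries the symbol, and all 10 were found among 36653 gene identifiers. Polyadenylated ventricular RNA was sequenced from wild-type animals of the C57BL/6 strain, 10 weeks old, in 3 groups of 5, which the labels call biological replicates. The AngII plus OA mice carried a subcutaneous pump releasing angiotensin II (AngII) at 1000 ng/kg/min and were also given OA, which is oleic acid, the main fatty acid of olive oil, at 160 mg/kg and 0.3 mL per mouse per day. The AngII mice carried the pump alone, and the vehicle mice received saline. All groups share the strain, the genotype and the age, and no group received OA without AngII. How long the mice were treated is not given in the sources used here, nor is whether vehicle mice carried a pump.

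AngII is a peptide hormone that raises blood pressure and is used in mice to enlarge and scar the heart. GATA4, NKX2-5, TBX5, HAND2, the MEF2 proteins and SRF are DNA-binding proteins that switch on contractile protein genes while the heart forms, often on shared enhancers, and they go on being made in adult heart muscle. Stress signals are known to act on several of them through phosphorylation, movement between cytoplasm and nucleus, or release of bound histone deacetylases, steps that a measurement of RNA does not read. The comparisons asked whether the RNA of these factors differed between treatments.

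All 10 factors were measured above 0 in every heart, and their group means lay close together. The highest of the 3 group means was 1.05 times the lowest for Mef2a and Nkx2-5 and 1.502 times the lowest for Tbx5, with the other factors between. None of the 10 passed the test in AngII hearts against vehicle hearts (limma, Benjamini-Hochberg adjusted over 13121 genes, smallest adjusted p among the factors 0.571), where 1.5% of all genes tested did (1.27% higher and 0.236% lower). None passed in AngII plus OA hearts against AngII hearts (smallest adjusted p 0.772) or against vehicle hearts (smallest adjusted p 1.0), where 0% of all genes did, nor in all AngII-exposed hearts against vehicle hearts (smallest adjusted p 0.684), where 0.0229% of all genes did (0.0152% higher and 0.00762% lower). None of the factors had an unadjusted limma p under 0.05 either, against 16.6%, 6.6%, 3.36% and 10.9% of all genes in those 4 comparisons. The value ranges of the groups overlapped for every factor in every comparison, whereas 3.8%, 1.27%, 0.838% and 0.351% of all genes had ranges that did not. A p that misses the threshold does not show that values were equal, and the 95% intervals, which are not adjusted for the number of genes, give the range that each difference allows. The comparisons share groups with each other and are not independent. In bulk tissue, fewer cells of a type and less RNA per cell cannot be told apart.

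The unit, FPKM, divides the fragments of a gene by its length in kilobases and by the library total, so a level between genes rests on the length used for each. No source used here gives the authors' gene lengths, and for Gata6, Nkx2-5 and Srf the length that fits whole reads (3194, 1525 and 4093 nt) differs from the exon length in the annotation (6508, 1719 and 2893 nt). Averaged over the 15 libraries as deposited, Nkx2-5 was the most abundant member at 23.2 FPKM. Gata6 followed at 18.7, Mef2d at 16.7, Srf at 14.6, Gata4 at 14.0, Mef2a at 11.7 and Hand2 at 10.1 FPKM, and Tbx20 at 5.61, Mef2c at 3.96 and Tbx5 at 2.95 FPKM were lowest. At the annotation lengths the averages would be 20.7 FPKM for Srf, 20.6 for Nkx2-5 and 9.17 for Gata6, so the places of these 3 genes depend on the gene model, and comparisons of a gene between libraries do not. As deposited, some neighbours in this order were separated in nearly every library and others were not. Nkx2-5 exceeded Gata6 in 14 of 15 libraries and Hand2 exceeded Tbx20 in 14, but Gata6 exceeded Mef2d in only 9 and Srf exceeded Gata4 in 8. The members also differed in how far they ranged. Mef2a was the steadiest, with its highest library 1.32 times its lowest, followed by Nkx2-5 at 1.53 times, while Tbx20 spanned 3.39 times and Tbx5 4.47 times. The fewest reads behind any member's value were 188, for Tbx5, and the most were 5275, for Mef2a.

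**Figure D1:**
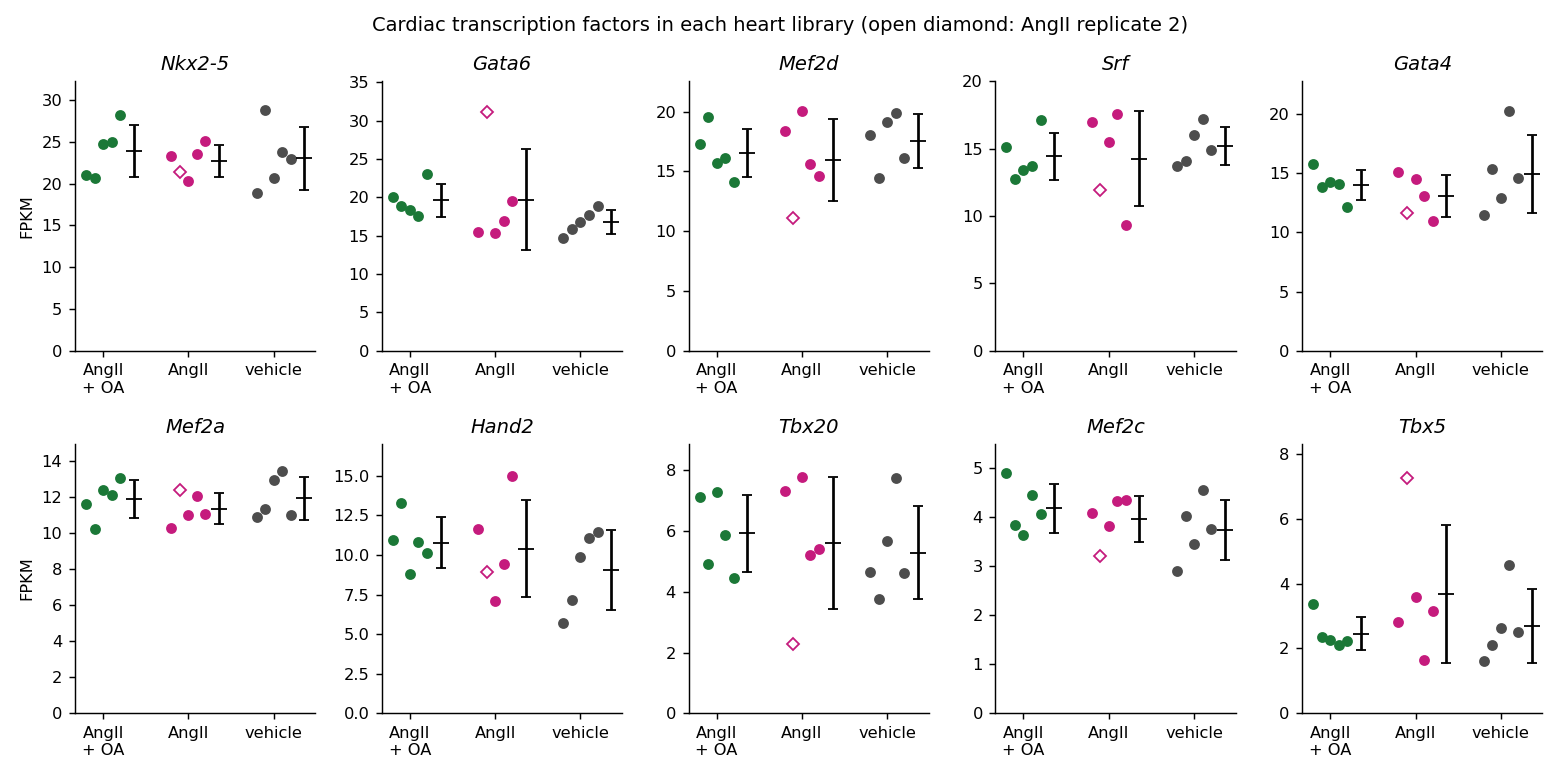
Level of each factor in FPKM (vertical axes, from 0) in AngII plus OA (green), AngII (magenta) and vehicle (grey) hearts, 1 point per library, with the group mean and SD beside the points (n = 5 each). The groups overlap for all 10 factors, and the open diamond, AngII replicate 2, is the highest of 15 libraries for Gata6 and Tbx5 and the lowest for Mef2d and Tbx20.

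The libraries had FPKM denominators of 24.5 to 28.3 M fragments, and 34.5 to 50.02% of their FPKM came from mitochondrially encoded genes. This is a share of summed FPKM, in which gene length counts, and not of the fragments that scale each value. This share was 38.6 to 47.02% in AngII plus OA hearts, 34.5 to 48.3% in AngII hearts (42.8% or less without replicate 2) and 44.6 to 50.02% in vehicle hearts, so it moved with the groups. The remaining share was higher by 0.15 on the log2 scale in AngII than in vehicle hearts. Taking those mitochondrial genes out of the FPKM total moved the values by less than that. The median difference between AngII and vehicle hearts over all genes tested went from 0.075 to 0.0087, and that of Mef2c from 0.069 to -0.0050. The factors then differed by -0.25 to 0.22 between AngII and vehicle hearts and 0 passed (smallest limma adjusted p 0.506). One library stood apart. AngII replicate 2 lay at 66.1 on the first principal component of all genes tested (29.0% of the variance), and the other 14 libraries lay between -17.2 and 8.98. The summed FPKM of 5 atrial markers was 2541 in it and 3.84 to 704 in the other libraries, and the summed FPKM of 13 cardiomyocyte markers was 19764 in it and 30312 to 40586 in the others. Its summed adipocyte (283), mesothelial (82.9) and B cell (53.3) markers were also the highest of 15. Differences for Gata6, Mef2d, Tbx5, Tbx20 and the ratio of Gata6 to Gata4 that use this library are given with and without it.

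Promoter windows from RefSeq on build GRCm38.p6 ran from 250 bases before a gene's start to 50 bases after it. The match by symbol left out the chromosome that holds Gata6, so Gata6 could not be given a window. Windows were used for 7 of the 10 factors (all but Gata4, Gata6 and Tbx5), with 3 windows for Mef2c. They were searched on both strands for the CArG box, the MEF2 site, GATAA, the NKX2-5 core TNAAGTG and the T-box core AGGTGTNA, which 1.63%, 3.19%, 25.4%, 11.5% and 3.03% of all 32851 windows hold. The Srf window held 2 CArG boxes, starting 82 and 62 bases before the start, and the window of its target Acta1 held 1, at 73 bases. The window of Ankrd1, an SRF target that also rose, held no CArG box, and that of Des, a MEF2 target that rose, held no MEF2 site. Of the motifs searched, those windows held only GATAA, 47 bases before the start of Ankrd1 and 235 before that of Des. The Mef2a window held a MEF2 site across the start itself. GATAA was found at 214 and 172 bases before the start of Hand2 and at 230 and 128 bases in one Mef2c window, and none of the 5 motifs in the windows of Mef2d, Nkx2-5 or Tbx20. These are matches of letters and not measured binding. The Srf and Acta1 windows are shown upstream of the start because they set the same element in a factor whose RNA did not pass the test beside a target whose RNA rose, and the Mef2a stretch because it shows the site of a family in the promoter of a member. Each sequence is on the minus strand, written 5′ to 3′, with the CArG boxes or the MEF2 site in capitals, at chr17:46556163-46556412 for Srf, chr8:123894776-123895025 for Acta1 and chr7:67372849-67372898 for Mef2a.
Srf: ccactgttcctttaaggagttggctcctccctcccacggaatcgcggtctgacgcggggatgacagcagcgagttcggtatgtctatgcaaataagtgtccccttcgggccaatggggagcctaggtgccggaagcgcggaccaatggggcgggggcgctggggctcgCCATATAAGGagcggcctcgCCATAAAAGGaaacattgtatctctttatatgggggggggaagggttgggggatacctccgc
Acta1: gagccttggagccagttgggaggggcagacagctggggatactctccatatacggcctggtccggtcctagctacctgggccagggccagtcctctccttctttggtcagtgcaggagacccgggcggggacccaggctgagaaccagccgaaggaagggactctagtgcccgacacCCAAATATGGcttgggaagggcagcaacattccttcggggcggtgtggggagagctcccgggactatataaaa
Mef2a: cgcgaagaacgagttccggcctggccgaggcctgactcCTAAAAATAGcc

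GATA4 and GATA6 are zinc finger proteins that bind the letters GATA and are partly redundant in heart muscle. Gata4 (ENSMUSG00000021944) had 15.8, 13.8, 14.2, 14.1 and 12.1 FPKM in AngII plus OA hearts, 15.1, 11.6, 14.5, 13.1 and 10.9 FPKM in AngII hearts, and 11.5, 15.3, 12.9, 20.2 and 14.6 FPKM in vehicle hearts. The ranges overlapped, and the highest value of all 15 was a vehicle heart. The means were 14.0 ± 1.29 FPKM in AngII plus OA hearts, 13.0 ± 1.78 in AngII hearts and 14.9 ± 3.33 in vehicle hearts (SD, n = 5 each). On the log2(FPKM + 1) scale used for all changes here, Gata4 differed by -0.17 between AngII and vehicle hearts (95% interval -0.45 to 0.12, limma adjusted p = 0.571), a value that ran from -0.25 without vehicle replicate 1 to -0.057 without vehicle replicate 4. It differed by 0.10 between AngII plus OA and AngII hearts (-0.18 to 0.38, adjusted p = 0.887).

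Gata6 (ENSMUSG00000005836) had 20.1, 18.9, 18.4, 17.5 and 23.1 FPKM in AngII plus OA hearts, 15.5, 31.1, 15.4, 17.0 and 19.5 FPKM in AngII hearts, and 14.7, 15.8, 16.8, 17.7 and 18.8 FPKM in vehicle hearts. The AngII range was set by replicate 2 at 31.1 FPKM, and the other 4 AngII hearts lay between 15.4 and 19.5 FPKM, beside 14.7 to 18.8 FPKM in vehicle hearts. Gata6 differed by 0.18 on the log2 scale between AngII and vehicle hearts (95% interval -0.16 to 0.51, limma adjusted p = 0.621). Without AngII replicate 2 the same difference was 0.0045 (adjusted p = 0.987). Between AngII plus OA and AngII hearts Gata6 differed by 0.037 (-0.30 to 0.37, adjusted p = 0.973), and by 0.21 without that library (adjusted p = 0.712). The AngII plus OA hearts averaged 19.6 ± 2.16 FPKM and the vehicle hearts 16.8 ± 1.60 FPKM (SD, n = 5 each), a log2 difference of 0.21 (-0.12 to 0.55, adjusted p = 1.0). Gata6 shares its locus with a gene on the opposite strand, 1010001N08Rik, and whether the counting used strand is not given.

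Because both GATA factors are read in the same library, their ratio does not depend on library scaling. The log2 ratio of Gata6 to Gata4 averaged 0.48 ± 0.25 in AngII plus OA hearts, 0.55 ± 0.58 in AngII hearts and 0.19 ± 0.26 in vehicle hearts (SD, n = 5 each). Values ran from 0.32 to 0.93 in AngII plus OA hearts, from 0.035 to 1.42 in AngII hearts and from -0.20 to 0.38 in vehicle hearts, and the groups overlapped. Which of the pair is higher depends on the gene model, since Gata6 exceeded Gata4 in 14 of 15 hearts as deposited but would in 1 of 15 at the annotation lengths, while differences of the ratio between groups do not depend on it. The difference between AngII plus OA and vehicle hearts was 0.29 (2-sided exact permutation p = 0.143, adjusted p = 0.794 over 12 such tests), and between AngII and vehicle hearts 0.36 (exact permutation p = 0.270, adjusted p = 0.810). Without AngII replicate 2 the AngII mean was 0.33 ± 0.37 (SD, n = 4). The difference from vehicle hearts was then 0.14 (exact permutation test, adjusted p = 0.783), and that of AngII plus OA from AngII hearts was 0.15, against -0.067 with all libraries. With 5 libraries a group, no p under 0.00794 can be reached.

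MEF2 proteins bind an AT-rich site in muscle genes as dimers and are held inactive by class II histone deacetylases. Mef2c was the least abundant of the MEF2 genes in all 15 libraries, and Mef2d the most abundant in 14 of them, since Mef2a exceeded it in AngII replicate 2. Mef2a (ENSMUSG00000030557) had 11.6, 10.2, 12.3, 12.1 and 13.0 FPKM in AngII plus OA hearts, 10.3, 12.4, 10.99, 12.02 and 11.1 FPKM in AngII hearts, and 10.9, 11.3, 12.9, 13.4 and 11.01 FPKM in vehicle hearts. These ranges nearly coincided. The log2 difference was -0.062 between AngII and vehicle hearts (95% interval -0.26 to 0.13, limma adjusted p = 0.781), the narrowest interval of the 10 factors, and 0.058 between AngII plus OA and AngII hearts (-0.14 to 0.25, adjusted p = 0.907). Mef2a overlaps other annotated genes, with Lysmd4 on the opposite strand and Gm44667 and Gm44668 on the same strand, so some of its reads may be shared.

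Mef2c (ENSMUSG00000005583), the MEF2 gene that the embryonic heart needs, had 4.90, 3.84, 3.63, 4.46 and 4.07 FPKM in AngII plus OA hearts, 4.08, 3.21, 3.83, 4.33 and 4.35 FPKM in AngII hearts, and 2.90, 4.03, 3.46, 4.55 and 3.76 FPKM in vehicle hearts. The lowest of the 15 was a vehicle heart and the highest an AngII plus OA heart, but most values of the groups lay within each other's range. The log2 difference was 0.13 between AngII plus OA and vehicle hearts (95% interval -0.096 to 0.36, limma adjusted p = 1.0). It was 0.069 between AngII and vehicle hearts (-0.16 to 0.30, adjusted p = 0.794), and this sign turned when libraries were rescaled (-0.0050 without mitochondrially encoded genes in the total).

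Mef2d (ENSMUSG00000001419) had 17.3, 19.5, 15.7, 16.1 and 14.2 FPKM in AngII plus OA hearts, 18.4, 11.1, 20.1, 15.6 and 14.6 FPKM in AngII hearts, and 18.1, 14.4, 19.2, 19.9 and 16.2 FPKM in vehicle hearts. AngII replicate 2 held the lowest value of all libraries. The log2 difference between AngII and vehicle hearts was -0.15 (95% interval -0.45 to 0.16, limma adjusted p = 0.653), and -0.031 without that library (adjusted p = 0.924). Between AngII plus OA and AngII hearts it was 0.068 (-0.23 to 0.37, adjusted p = 0.938), and its sign turned without that library, to -0.047 (adjusted p = 0.950). 1700113A16Rik lies opposite Mef2d.

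Of the summed MEF2 FPKM, Mef2d made up 50.7 ± 4.71% in AngII plus OA hearts, 50.6 ± 6.44% in AngII hearts and 52.8 ± 3.00% in vehicle hearts. Mef2a made up 36.5 ± 4.34% in AngII plus OA hearts, 36.7 ± 6.11% in AngII hearts and 35.9 ± 1.42% in vehicle hearts. Mef2c made up 12.8 ± 1.35% in AngII plus OA hearts, 12.7 ± 1.36% in AngII hearts and 11.3 ± 1.83% in vehicle hearts (SD, n = 5 each). The groups overlapped in the share of each paralog. The smallest p among the 9 share comparisons belonged to Mef2c in AngII plus OA against vehicle hearts, where the share differed by 1.503 percentage points (exact permutation p = 0.183, adjusted p = 0.794). With all libraries, every adjusted p for shares and ratios was 0.794 or higher.

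**Figure D2:**
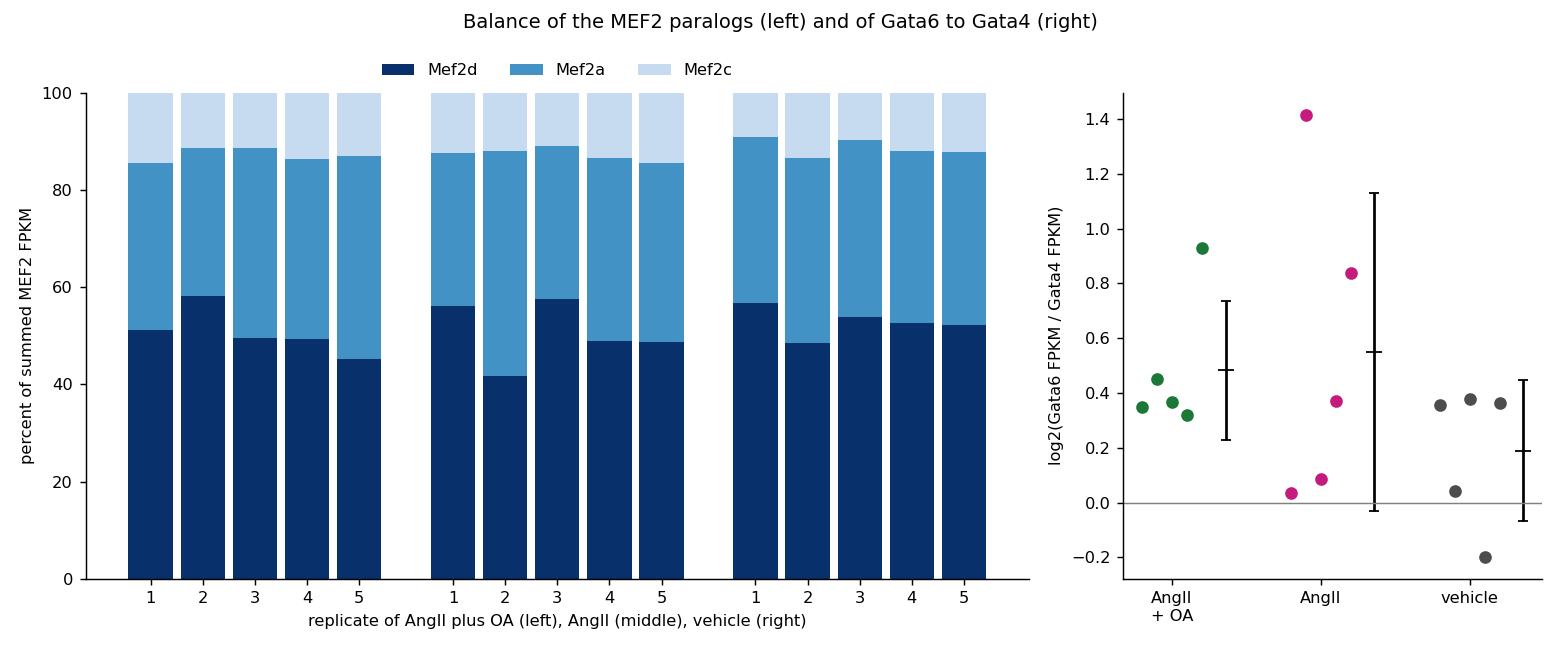
Left: percent of the summed MEF2 FPKM from Mef2d, Mef2a and Mef2c in each library, with AngII plus OA, AngII and vehicle hearts from left to right. Right: log2 ratio of Gata6 to Gata4 FPKM in each library, with the mean and SD of each group (n = 5 each). Mef2d gave 41.6% of the MEF2 total in AngII replicate 2 and 45.3 to 58.2% in AngII plus OA hearts, and the same AngII library had the highest ratio, 1.42.

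NKX2-5 is a homeodomain protein that works with GATA4 and TBX5 and is needed for the conduction system. Nkx2-5 (ENSMUSG00000015579) had 21.0, 20.7, 24.8, 25.0 and 28.2 FPKM in AngII plus OA hearts, 23.4, 21.4, 20.3, 23.5 and 25.1 FPKM in AngII hearts, and 18.8, 28.9, 20.7, 23.7 and 22.9 FPKM in vehicle hearts. Both the lowest and the highest of the 15 values were vehicle hearts, so both AngII groups lay inside the vehicle range. The means were 23.9 ± 3.15 FPKM in AngII plus OA hearts, 22.7 ± 1.90 in AngII hearts and 23.0 ± 3.79 in vehicle hearts (SD, n = 5 each). The log2 difference was -0.0065 between AngII and vehicle hearts (95% interval -0.26 to 0.25, limma adjusted p = 0.987) and 0.065 between AngII plus OA and AngII hearts (-0.19 to 0.32, adjusted p = 0.927).

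TBX5 and TBX20 are T-box proteins. TBX5 activates atrial and conduction genes with NKX2-5 and GATA4, and is itself made more in atria and the left ventricle than in the right ventricle, while TBX20 can activate or repress and is needed in adult heart muscle. Tbx5 (ENSMUSG00000018263) had 3.37, 2.34, 2.25, 2.10 and 2.23 FPKM in AngII plus OA hearts, 2.80, 7.26, 3.57, 1.64 and 3.16 FPKM in AngII hearts, and 1.62, 2.11, 2.64, 4.58 and 2.52 FPKM in vehicle hearts. AngII replicate 2, where atrial markers were highest, was far above the rest, and the other 14 lay between 1.62 and 4.58 FPKM. The log2 difference was 0.29 between AngII and vehicle hearts (95% interval -0.24 to 0.81, limma adjusted p = 0.599) and 0.058 without that library (adjusted p = 0.916). Between AngII plus OA and AngII hearts it was -0.35 (-0.87 to 0.18, adjusted p = 0.772), the difference furthest from 0 for any factor in any comparison, and -0.12 without AngII replicate 2 (adjusted p = 0.920). The part of atrial RNA in these values was not tested.

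Tbx20 (ENSMUSG00000031965) had 7.12, 4.90, 7.27, 5.86 and 4.47 FPKM in AngII plus OA hearts, 7.33, 2.30, 7.79, 5.22 and 5.39 FPKM in AngII hearts, and 4.67, 3.75, 5.69, 7.75 and 4.60 FPKM in vehicle hearts. Here AngII replicate 2 was the lowest library, so the T-box pair stood at opposite ends in it. The log2 difference between AngII and vehicle hearts was 0.024 (95% interval -0.48 to 0.52, limma adjusted p = 0.973), and its sign turned under each rescaling of the libraries. Without AngII replicate 2 it was 0.25 (adjusted p = 0.487). Between AngII plus OA and AngII hearts Tbx20 differed by 0.13 (-0.37 to 0.63, adjusted p = 0.928), and by -0.10 without that library (adjusted p = 0.922). The interval for Tbx20 between AngII and vehicle hearts spans from 0.719-fold to 1.44-fold.

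**Figure D3:**
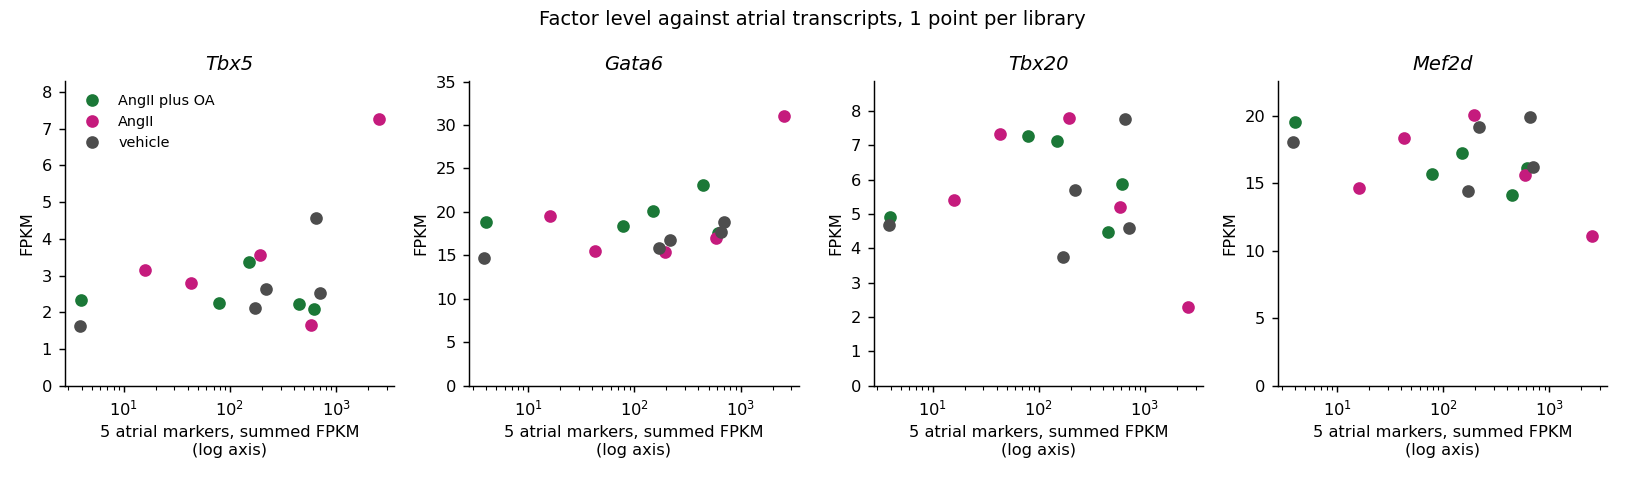
FPKM of Tbx5, Gata6, Tbx20 and Mef2d (vertical axes, from 0) against the summed FPKM of 5 atrial markers (log axis), 1 point per library, in AngII plus OA, AngII and vehicle hearts. The point at 2541 is AngII replicate 2, and the other 14 libraries lie at 3.84 to 704, with Tbx5 between 1.62 and 4.58 FPKM.

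HAND2 is a basic helix-loop-helix protein of the right ventricle and outflow tract, and is also made in cardiac fibroblasts. Hand2 (ENSMUSG00000038193) had 10.9, 13.3, 8.78, 10.8 and 10.1 FPKM in AngII plus OA hearts, 11.6, 8.90, 7.09, 9.42 and 15.0 FPKM in AngII hearts, and 5.69, 7.17, 9.89, 11.1 and 11.4 FPKM in vehicle hearts. The highest library was an AngII heart and the lowest a vehicle heart, but 3 vehicle hearts lay within the AngII plus OA range. The means were 10.8 ± 1.63 FPKM in AngII plus OA hearts, 10.4 ± 3.04 in AngII hearts and 9.06 ± 2.52 in vehicle hearts (SD, n = 5 each). The mean of both AngII groups differed from vehicle hearts by 0.22 on the log2 scale (95% interval -0.14 to 0.58, limma adjusted p = 0.716). Reads of Hand2os1, the noncoding gene that runs opposite Hand2, cannot be told apart from those of Hand2 without the strand setting.

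SRF is a MADS box protein that binds CArG boxes, with myocardin family partners at muscle genes and with ternary complex factors at immediate early genes. Srf (ENSMUSG00000015605) had 15.1, 12.8, 13.4, 13.7 and 17.1 FPKM in AngII plus OA hearts, 17.0, 11.9, 15.5, 17.6 and 9.33 FPKM in AngII hearts, and 13.8, 14.1, 16.0, 17.2 and 14.9 FPKM in vehicle hearts. The AngII hearts spread widest and held both the highest and the lowest value. The log2 difference was -0.11 between AngII and vehicle hearts (95% interval -0.43 to 0.20, limma adjusted p = 0.746) and 0.043 between AngII plus OA and AngII hearts (-0.27 to 0.36, adjusted p = 0.965). Gm26904 lies opposite Srf and Mir6976 lies within it.

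**Figure D4:**
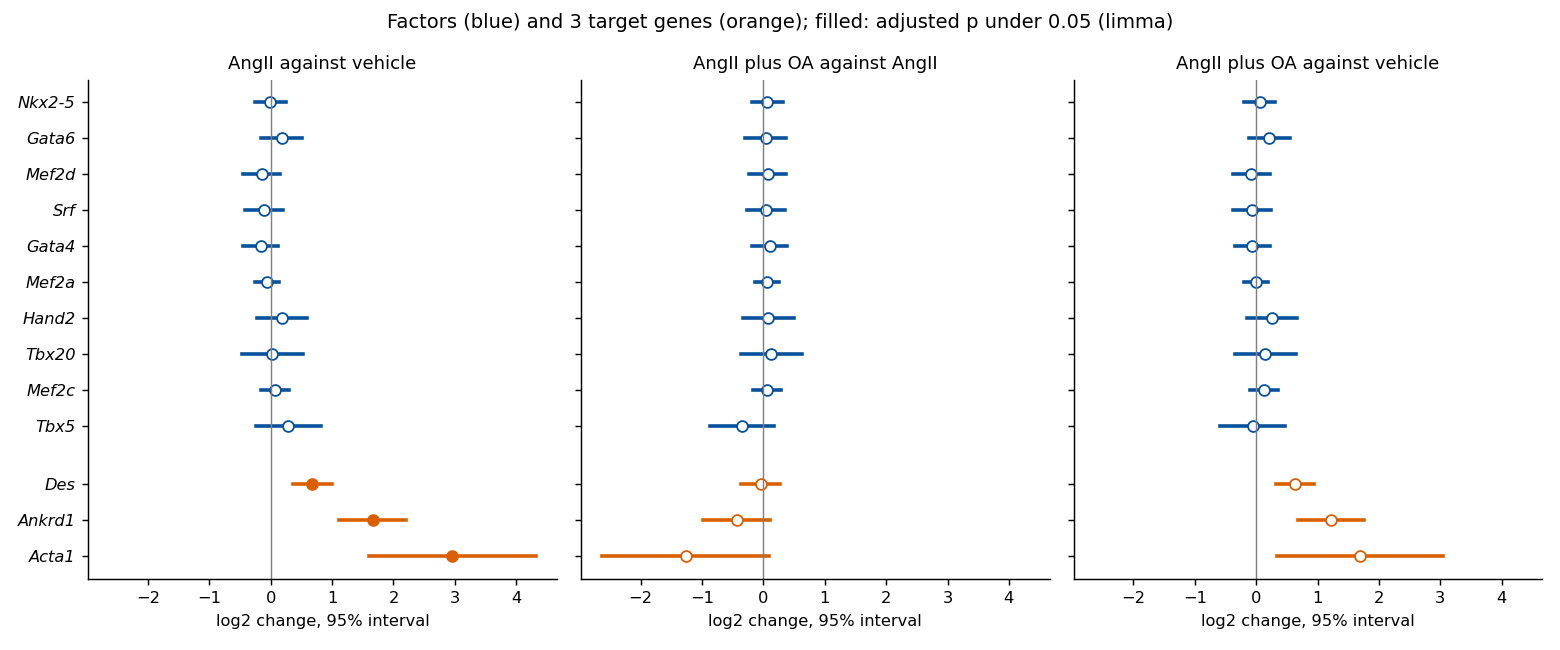
Difference on the log2(FPKM + 1) scale with its 95% limma interval for the 10 factors (blue) and for Des, Ankrd1 and Acta1 (orange) in 3 comparisons, filled where the adjusted p is under 0.05. All factor intervals include 0. The 3 target genes are filled in AngII against vehicle hearts, at 0.68, 1.66 and 2.96, and are shown because they passed there. No other gene of the 3 target lists passed, and the list medians were -0.13 (GATA4, NKX2-5 and TBX5), -0.031 (MEF2) and -0.11 (SRF).

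Over the 10 factors, the differences between AngII and vehicle hearts ran from -0.17 to 0.29, with 5 positive and 5 negative and a median of 0.0087, beside a median of 0.075 over all genes tested. Interval bounds reached from -0.48 to 0.81 in that comparison, from -0.87 to 0.63 between AngII plus OA and AngII hearts, and from -0.59 to 0.67 between AngII plus OA and vehicle hearts. In all AngII-exposed against vehicle hearts the differences ran from -0.12 to 0.22 and the bounds from -0.37 to 0.58. Between AngII plus OA and AngII hearts 9 factors differed positively and 1, Tbx5, negatively (median 0.064, beside -0.052 over all genes tested). Without AngII replicate 2, Mef2d (-0.047), Tbx20 (-0.10) and Srf (-0.0081) were negative there as well. Between AngII plus OA and vehicle hearts 5 were positive and 5 negative (median 0.027, beside 0.025 over all genes). The bound furthest from 0 in AngII against vehicle hearts was that of Tbx5, at 1.76-fold. The summed level of the 10 factors was 120.3 to 129 FPKM in AngII plus OA hearts, 119 to 125 FPKM in AngII hearts and 103 to 140 FPKM in vehicle hearts, so the vehicle hearts held both the lowest and the highest sum.

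The genes through which these factors act were read from lists of well-known partners and targets. These lists were chosen with earlier results of these data known, so counts of their members that passed are a description only. In AngII against vehicle hearts, 1.5% of all genes tested passed. Of 15 cofactors and repressors, among them the histone deacetylases that bind MEF2 and the myocardin family partners of SRF, 0 passed in AngII against vehicle hearts (median log2 difference 0.053, against 0.075 over all genes). Hopx, which encodes a small homeodomain protein that binds no DNA and restrains SRF, had 61.5, 40.0, 62.3, 67.2 and 41.1 FPKM in AngII hearts and 79.2, 92.2, 77.1, 71.2 and 87.1 FPKM in vehicle hearts. Its AngII and vehicle ranges did not overlap, which held for 3.8% of all genes tested. The log2 difference was -0.60 (95% interval -0.92 to -0.28, limma adjusted p = 0.0647). It passed when libraries were quantile normalized (-0.74, adjusted p = 0.0254), rescaled without mitochondrially encoded genes (-0.69, adjusted p = 0.0348) or shifted to a common median (-0.69, adjusted p = 0.0443). Of 10 fits that left out 1 library it passed in 1, without AngII replicate 3 (-0.66, adjusted p = 0.0383).

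In AngII plus OA hearts Hopx stood at 74.8 ± 9.07 FPKM, against 54.4 ± 12.9 FPKM in AngII hearts (SD, n = 5 each), a log2 difference of 0.48 that did not pass the limma test (adjusted p = 0.706). Smyd1, a muscle methyltransferase and the other most abundant cofactor, differed by 0.053 between AngII and vehicle hearts (adjusted p = 0.933), and its sign turned under each rescaling. Zfpm1, which encodes the GATA cofactor FOG1 and was singled out after its values were seen, had 2.84 to 4.30 FPKM in AngII hearts and 2.10 to 2.69 FPKM in vehicle hearts. These ranges did not overlap, which held for 3.8% of all genes tested, and the log2 difference was 0.38 (limma adjusted p = 0.153).

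Among 14 other cardiac lineage factors, 9 were abundant enough to test and 0 passed in AngII against vehicle hearts (median 0.11). Of all genes tested, 1.5% passed there (median 0.075), so 0 calls in a list this short say little about its members. The most abundant, Irx4, a ventricle-restricted Iroquois factor, differed by -0.36 (limma adjusted p = 0.311), and Irx3, an Iroquois factor of the conduction system, by 0.42 (adjusted p = 0.313). Of 14 targets of GATA4, NKX2-5 and TBX5, 0 passed (median -0.13), beside the same 1.5% of all genes. Ankrd1 and Acta1, which passed, were listed under SRF alone. These factors often act on shared enhancers, so the counts do not separate the targets of one factor from those of another. Myl2, the ventricular myosin light chain, differed by -0.35 (adjusted p = 0.413) and Actc1, cardiac actin, by -0.12 (adjusted p = 0.881). The sign turned when libraries were quantile normalized for Myl2 (0.0075) and weighted by quality for Actc1 (0.23).

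Of 14 MEF2 targets, 1 passed in AngII against vehicle hearts, and it was higher (median of the list -0.031). The differences in this list ran from -1.27 to 1.36, with 7 positive and 7 negative. Of all genes tested, 1.5% passed and 1.27% passed as higher, with a median of 0.075. Des, the intermediate filament desmin, had 576, 918, 545, 594 and 595 FPKM in AngII plus OA hearts, 690, 593, 604, 634 and 766 FPKM in AngII hearts, and 447, 491, 398, 357 and 364 FPKM in vehicle hearts. Every AngII-exposed heart was above every vehicle heart, and 0.351% of all genes tested were separated in this way in either direction. Des rose by 0.68 on the log2 scale in AngII hearts against vehicle hearts (95% interval 0.37 to 0.99, limma adjusted p = 0.0335). The call was lost in 12 of 20 alternatives, 6 of them the removal of AngII replicate 1, 4 or 5 or vehicle replicate 3, 4 or 5 (adjusted p 0.0647 to 0.0940).

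Of 14 SRF targets, 13 were tested and 2 passed in AngII against vehicle hearts, both higher (median -0.11). Their list ran from -1.51 to 2.96, with 3 positive and 10 negative. Of all genes tested, 1.5% passed, 1.27% as higher (median 0.075). Ankrd1, a stretch-responsive ankyrin repeat protein of the sarcomere and nucleus, had 796, 1474, 762, 729 and 498 FPKM in AngII plus OA hearts, 1466, 1027, 956, 1097 and 941 FPKM in AngII hearts, and 461, 286, 401, 399 and 222 FPKM in vehicle hearts. All AngII-exposed hearts exceeded all vehicle hearts (0.351% of all genes tested were separated in either direction). Ankrd1 rose by 1.66 in AngII hearts (95% interval 1.12 to 2.20, limma adjusted p = 0.0114), a call kept in all 20 alternatives. Over all AngII-exposed hearts it rose by 1.44 (adjusted p = 0.0443), a call lost in 13 of 24 alternatives.

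Acta1, the skeletal actin gene that adult mouse heart re-expresses under load, had 138, 1266, 476, 638 and 85.8 FPKM in AngII plus OA hearts, 1793, 260, 976, 1405 and 592 FPKM in AngII hearts, and 126, 116, 129, 89.9 and 74.4 FPKM in vehicle hearts. The AngII hearts did not overlap the vehicle hearts (true of 3.8% of all genes tested), while 1 AngII plus OA heart lay within the vehicle range. Acta1 rose by 2.96 in AngII hearts (95% interval 1.60 to 4.32, limma adjusted p = 0.0335). The call was lost in 10 of 20 alternatives, with no filter (adjusted p = 0.0869), with the replicate block (adjusted p = 0.0663), and under the removal of any AngII or vehicle library other than AngII replicates 2 and 3 (adjusted p 0.0511 to 0.0917). Reads of Acta1 and other actin genes may be shared. In the same hearts Srf, whose window also holds CArG boxes, with 9.33 to 17.6 FPKM in AngII hearts and 13.8 to 17.2 FPKM in vehicle hearts, did not pass.

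None of the members of the 5 partner and target lists passed between AngII plus OA and AngII hearts, where 0% of all genes tested did. Ankrd1 differed by -0.44 (95% interval -0.98 to 0.10, limma adjusted p = 0.750), Acta1 by -1.27 (-2.63 to 0.087, adjusted p = 0.737) and Des by -0.047 (-0.36 to 0.27, adjusted p = 0.962). Between AngII plus OA and vehicle hearts the differences were 1.22 for Ankrd1 (limma adjusted p = 0.926), 1.69 for Acta1 (adjusted p = 1.0) and 0.63 for Des (adjusted p = 0.926). None of the 3 passed there, where 0% of all genes tested did, although their unadjusted 95% intervals lie above 0. Beside these changes, markers of other cells also moved in AngII against vehicle hearts, with 3 of 9 fibroblast and 4 of 8 macrophage markers higher, and 0 of 13 cardiomyocyte markers called, beside 1.5% of all genes called and 1.27% higher. The fibroblast markers summed to 1361 to 1876 FPKM in AngII hearts and 844 to 1516 FPKM in vehicle hearts, and the macrophage markers to 227 to 380 FPKM in AngII hearts and 161 to 214 FPKM in vehicle hearts. Their part in the values of the factors was not tested.

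Hspb7, a small heat shock protein of heart muscle and the most abundant MEF2 target, had 921, 1259, 793, 791 and 669 FPKM in AngII plus OA hearts, 992, 580.1, 912, 823 and 819 FPKM in AngII hearts, and 643, 579.6, 486, 435 and 384 FPKM in vehicle hearts. All AngII-exposed hearts other than AngII replicate 2 were above all vehicle hearts. All AngII-exposed hearts differed from vehicle hearts by 0.75 on the log2 scale (95% interval 0.40 to 1.11, limma adjusted p = 0.0753), which passed with library weights (0.82, adjusted p = 0.0336), without AngII plus OA replicate 5 (0.80, adjusted p = 0.0477) or without AngII replicate 2 (0.82, adjusted p = 0.0372). It was 0.80 between AngII plus OA and vehicle hearts (adjusted p = 0.926) and 0.092 between AngII plus OA and AngII hearts (adjusted p = 0.938).

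The other most abundant members of these lists did not pass either, in comparisons where 0% or 0.0229% of all genes tested did. In AngII plus OA against AngII hearts their log2 differences were 0.48 for Myl2, 0.37 for Actc1, 0.23 for Tpm1 (a tropomyosin), 0.22 for Irx4, 0.14 for Smyd1, -0.14 for Pgam2 (the muscle phosphoglycerate mutase) and -0.25 for Irx3 (limma adjusted p 0.737 or higher for each). Between all AngII-exposed and vehicle hearts it was -0.36 for Hopx (adjusted p = 0.306), -0.25 for Irx4 (adjusted p = 0.594), 0.30 for Irx3 (adjusted p = 0.587) and 0.13 for Pgam2 (adjusted p = 0.887). In AngII plus OA against vehicle hearts the limma adjusted p was 1.0 for these 8 genes, with differences from -0.14 for Irx4 to 0.25 for Actc1.

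For each factor, the gene whose profile over the 15 libraries lay nearest was found among 11307 genes with a mean of at least 1 FPKM, as the mean absolute distance between centred log2 values. Tbx5, which varied most (own mean absolute deviation 0.31), lay nearest to Tgfbr3 at a distance of 0.151, and Tbx20 (0.29) to Pex19 at 0.117. Gata6 (0.18) lay nearest to Nsmce4a at 0.0879, Gata4 (0.15) to Rcan3 at 0.0919 and Hand2 (0.25) to Fam114a1 at 0.165. Mef2d (0.17) lay nearest to Usp5 at 0.0769, Mef2a (0.10) to Bptf at 0.0581 and Mef2c (0.12) to St3gal4 at 0.0646. Nkx2-5 (0.13) lay nearest to Dnal4 at 0.0691 and Srf (0.17) to Immp1l at 0.0801. No factor had another factor as its nearest gene. The closest factor to another held a rank between 57, for Mef2c near Hand2, and 1974, for Gata4 near Mef2d, among the 11307 genes. All these profiles share libraries and their depths, and nearness over 15 libraries is a description only.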

How the data were processed

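The deposited table gives FPKM as the authors computed them, 1 column per library, and 0 columns belonged to no sample. The submitters' processing notes name HISAT2 2.0.4 and build mm8, without their roles; sources used here give no counter, annotation or strand setting. GENCODE M21 named 36464 of the 36653 identifiers and gave exon lengths, the mitochondrially encoded genes and the overlaps of factors with other genes. RefSeq gave promoter windows. Both are on another build, so the overlaps may differ in the gene models behind the deposited values. Where a gene's FPKM rises in steps of 1 read, reads were recovered (86.3 to 87.2% of values under 1000 reads were whole within 0.02). They served to give read depth, which covers counting error alone. For Gata6, Nkx2-5 and Srf the length came from the steps of their own values, and their levels at the annotation lengths rest on it. No group test used the recovered reads.

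Changes were tested with limma 3.58.1 (R 4.3.3, intensity trend) on log2(FPKM + 1), which understates changes of low genes, over the 13121 genes averaging 0.5 FPKM or more, in 1 fit of all 15 libraries, 2-sided, Benjamini-Hochberg adjusted per comparison and called under 0.05. All 10 factors passed the filter. Shares and ratios used exact permutation tests (SciPy 1.17.1). The steps were tested on simulated data. All factors were named, with the called members of each list (up to 4, otherwise the 2 most abundant) and the nearest gene. The factors and lists were chosen with earlier results of these data known. Alternatives changed the pseudocount, filter, scaling, library weights, libraries fitted and replicate block, and left out each replicate.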

Additional observations from a re-analysis of the deposited data

Results flagged for a closer look

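In groups of 5, a library was singled out when its gap to the nearest other value exceeded 0.71 of the group's range; chance does this in about 1 in 20 groups. It happened in 6 of 81 groups examined, and in 2 of the 30 groups of the factors themselves. Gata6 in AngII hearts was highest in replicate 2, at 31.1 FPKM, with the next heart at 19.5 FPKM. Tbx5 in AngII plus OA hearts was highest in replicate 1, at 3.37 FPKM, with the next at 2.34 FPKM. The log2 ratio of Gata6 to Gata4 in AngII plus OA hearts was highest in replicate 5, at 0.93, with the next at 0.45. Among the target genes, Des in AngII plus OA hearts was highest in replicate 2, at 918 FPKM, with the next at 595 FPKM. Myl2 in AngII hearts was lowest in replicate 2, at 2555 FPKM, with the next at 5186 FPKM, and Tpm1 in AngII hearts was lowest in the same library, at 1188 FPKM, with the next at 1498 FPKM. AngII replicate 2 was also the library with the most atrial marker RNA, 2541 FPKM against 704 FPKM or less in the others, and the part of that RNA in its Gata6, Myl2 and Tpm1 values was not tested.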

How the results depend on the processing

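No factor was called in any of 88 fits, 4 as reported and the rest alternatives, and the smallest adjusted p (limma) was 0.336; the sign changed in 55 of 832 alternative values. Genes called among all tested moved more. AngII against vehicle hearts gave 197, but 72 with no filter, 109 quantile normalized, 114 rescaled without mitochondrially encoded genes, 70 with only the libraries compared, 38 with the replicate block, and 49 to 425 with 1 library left out: 86, 425, 70 and 49 without AngII replicates 1, 3, 4 and 5, and 79, 128, 70 and 50 without vehicle replicates 2, 3, 4 and 5. AngII plus OA against AngII hearts gave 0 to 1, the 1 without AngII replicate 3. All AngII-exposed against vehicle hearts gave 3, but 49 and 0 with pseudocounts of 0.1 and 5, 0 with no filter, 34 with a filter at 5 FPKM, 1 quantile normalized, 8 rescaled, 16 shifted to 1 median, 81 with library weights, 0 with the replicate block and 0 to 106 with 1 library left out (63 without AngII plus OA replicate 5, 91 and 106 without AngII replicates 2 and 3, 10 or fewer without each other library). Deviations of same-numbered libraries from their group means correlated at -0.350 to 0.435, with 6 of 15 pairs over 0.1. All pairs of replicate 3 were positive (0.211 to 0.435). No such correlations were computed for differently numbered libraries, so this check cannot tell whether the number pairs animals. The block called 0 factors.

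Signs that turned were all of differences that were not called. In AngII against vehicle hearts, quantile normalization, rescaling and a common median gave -0.066, -0.057 and -0.062 for Tbx20, -0.018, -0.0050 and -0.016 for Mef2c, and -0.098, -0.037 and -0.033 for Smyd1. Quantile normalization gave 0.0075 for Myl2, and library weights gave 0.028 for Srf, 0.060 for Nkx2-5, -0.0035 for Gata6 and 0.23 for Actc1. In AngII plus OA against AngII hearts, library weights gave -0.073 for Mef2d, -0.12 for Tbx20, -0.095 for Srf, -0.19 for Smyd1 and -0.046 for Hspb7, and a common median gave 0.014 for Des. In AngII plus OA against vehicle hearts, library weights gave 0.022 for Tbx5, 0.0016 for Mef2a and 0.016 for Gata4, and Nkx2-5 was -0.0093 quantile normalized and -0.039 rescaled, and Pgam2 -0.097 and -0.045. In all AngII-exposed against vehicle hearts, library weights gave 0.0068 for Gata4, and Nkx2-5 was -0.083, -0.067 and -0.029 under the 3 scalings, Actc1 -0.052 quantile normalized and -0.029 rescaled, and Myl2 0.11 quantile normalized. The Mef2a share was 0.256 points higher by group medians in AngII plus OA than in AngII hearts.

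With 1 library left out, AngII against vehicle hearts gave -0.099 to 0.25 for Tbx20, -0.19 to 0.017 for Srf, -0.072 to 0.075 for Nkx2-5, -0.28 to 0.19 for Actc1, -0.10 to 0.30 for Smyd1 and, without a change of sign, -0.25 to -0.057 for Gata4 and 0.14 to 0.49 for the log2 Gata6 to Gata4 ratio. AngII plus OA against AngII hearts gave -0.047 to 0.15 for Mef2d, -0.10 to 0.25 for Tbx20, -0.089 to 0.12 for Srf, -0.039 to 0.21 for Hand2, -0.034 to 0.21 for Gata6, -0.18 to 0.0094 for Des, -0.10 to 0.30 for Smyd1 and -0.043 to 0.18 for Hspb7. AngII plus OA against vehicle hearts gave -0.17 to 0.10 for Tbx5, -0.037 to 0.044 for Mef2a, -0.15 to 0.044 for Gata4, -0.0071 to 0.14 for Nkx2-5, -0.067 to 0.21 for Pgam2 and -0.29 to 0.0032 for Irx4. All AngII-exposed against vehicle hearts gave -0.0012 to 0.27 for Tbx5, -0.0060 to 0.21 for Tbx20, -0.063 to 0.0078 for Mef2a, -0.040 to 0.11 for Nkx2-5 and -0.015 to 0.22 for Actc1. Share differences in AngII plus OA against AngII hearts ran from -1.57 to 2.17 points for Mef2a, -0.314 to 0.562 for Mef2c and -2.12 to 1.85 for Mef2d, with -0.20 to 0.15 for the log2 Gata6 to Gata4 ratio. The Mef2a share ran from -0.691 to 2.14 points in AngII plus OA against vehicle hearts and from -1.57 to 2.18 in AngII against vehicle hearts, and the Mef2d share from -3.96 to 0.0127 there. The causes were not tested. Tbx5 rested on the fewest reads, 188 in its lowest library.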
